A study of Rattus norvegicus with 8 samples.

Results

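Heat-shock and stress chaperones were followed in the whole hippocampus of adrenalectomized (ADX) rats that had received either vehicle or corticosterone (CORT). The members were 10 genes chosen by name: the cytosolic chaperones Hspa4, Hspa8, Hspb1, Hsph1 and Dnajb1, the endoplasmic reticulum (ER) chaperones Hspa5 and Hsp90b1, and the mitochondrial chaperones Hspa9, Hspd1 and Hspe1. Of the 10 genes, 8 had a row under their symbol among the 13272 gene symbols of the deposited expression table, and Hsp90b1 had 2 transcripts, which gave 9 of 16266 transcript rows. Hspa8 and Hspe1 had no row under these symbols and were not analysed here beyond their promoter sequence. The samples were 8 hippocampi, 4 in each group. All of the rats had lost both adrenal glands, so neither group made its own corticosterone. According to the study's methods they were male, drank saline with corticosterone during recovery, and were switched to saline alone before the experiment. The vehicle group received 0.45% saline through a jugular cannula for 30 min. The CORT group received 0.75 mg/mL corticosterone in a cyclodextrin carrier in the same way. Tissue was taken 2 h after the infusion began. The labels give Sprague-Dawley rats of 3 to 4 months at zeitgeber time (ZT) 2, which is the time of infusion, whereas the methods name Lister hooded rats of a younger age and a later zeitgeber time for collection.

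Each transcript has 1 FPKM value for each group in the table, where FPKM is the number of sequenced fragments scaled by transcript length and by library size. The authors pooled the 4 rats of a group into that value. No spread between rats could therefore be given, no difference below was tested, and the depth of single libraries is unknown. A transcript is said to have risen or fallen when its CORT and vehicle FPKM differed by at least 1.2-fold, and all other values are given without such a word.

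Chaperones bind unfolded or partly folded proteins and use cycles of ATP hydrolysis to keep them from aggregating. HSP70 proteins such as Hspa8 in the cytosol, Hspa5 in the ER and Hspa9 in mitochondria hold short hydrophobic stretches of a client, J-proteins such as Dnajb1 deliver the client and trigger hydrolysis, and HSP110 proteins such as Hsph1 and Hspa4 release the nucleotide so that the cycle can restart. Hsp90b1 completes the folding of secreted and membrane proteins in the ER, Hspd1 and Hspe1 form the barrel and the lid of the mitochondrial chaperonin, and Hspb1 is a small heat-shock protein that holds clients without ATP. Cytosolic stress reaches these genes mainly through heat shock factor 1 and its heat shock elements. ER stress reaches them mainly through the unfolded protein response and its ER stress elements. The glucocorticoid receptor itself is held in a form able to bind hormone by the cytosolic HSP70 and HSP90 machinery.

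The promoters of the members other than Hspa4 carried a heat shock element or an ER stress element in their letters. Hspa4 had no match to any element searched. Windows of 300 bases, from 250 bases before to 50 bases after the RefSeq start on the GRCr8 assembly, were found for 10 of the 10 genes and searched on both strands. The 250 bases before the start are printed 5′ to 3′ on the strand of the gene for 6 genes, because they show the elements that separate the ER chaperones from the others and because Hspb1 and Dnajb1 changed most. Capitals mark an ER stress element, that is CCAAT and CCACG with any 9 bases between them, in Hspa5 (chr3:38452766-38453015, plus strand) and Hsp90b1 (chr7:23012294-23012543, minus strand).
Hspa5: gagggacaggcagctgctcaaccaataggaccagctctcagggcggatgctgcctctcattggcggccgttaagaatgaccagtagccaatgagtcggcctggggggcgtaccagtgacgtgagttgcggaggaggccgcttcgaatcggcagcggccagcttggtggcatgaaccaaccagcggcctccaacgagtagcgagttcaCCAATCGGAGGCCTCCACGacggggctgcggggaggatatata
Hsp90b1: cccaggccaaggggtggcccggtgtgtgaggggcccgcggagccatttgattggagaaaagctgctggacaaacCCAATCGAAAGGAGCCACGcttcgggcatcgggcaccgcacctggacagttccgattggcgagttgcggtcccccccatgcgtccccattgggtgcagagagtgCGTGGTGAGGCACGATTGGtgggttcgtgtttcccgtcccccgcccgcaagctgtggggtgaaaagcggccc
Capitals mark a heat shock element of 3 units, that is GAANNTTC followed after any 2 bases by GAA, or on the opposite strand TTC followed after any 2 bases by GAANNTTC. Hsph1 (chr12:10427118-10427367, plus strand) holds it on the opposite strand, and Hspe1 (chr9:64084077-64084326, plus strand) holds overlapping matches on both strands.
Hsph1: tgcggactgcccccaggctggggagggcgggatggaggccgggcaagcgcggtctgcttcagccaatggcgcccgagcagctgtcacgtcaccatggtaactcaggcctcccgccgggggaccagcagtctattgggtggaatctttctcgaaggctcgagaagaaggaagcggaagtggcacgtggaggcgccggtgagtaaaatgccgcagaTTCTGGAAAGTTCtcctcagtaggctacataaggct
Hspe1: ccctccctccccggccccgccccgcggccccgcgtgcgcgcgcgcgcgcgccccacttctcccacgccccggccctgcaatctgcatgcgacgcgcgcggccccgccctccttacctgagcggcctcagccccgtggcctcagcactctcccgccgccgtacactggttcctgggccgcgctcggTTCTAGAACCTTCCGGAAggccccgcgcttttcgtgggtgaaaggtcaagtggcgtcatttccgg
Capitals mark a heat shock element of 2 units, GAANNTTC, in Dnajb1 (chr19:41431142-41431391, minus strand) and Hspb1 (chr12:26432302-26432551, minus strand).
Dnajb1: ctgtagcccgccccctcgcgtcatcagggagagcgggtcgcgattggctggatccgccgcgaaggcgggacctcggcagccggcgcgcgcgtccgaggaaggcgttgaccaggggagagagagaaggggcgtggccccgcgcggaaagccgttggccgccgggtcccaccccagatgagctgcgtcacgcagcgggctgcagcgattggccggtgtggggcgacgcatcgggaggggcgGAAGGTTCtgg
Hspb1: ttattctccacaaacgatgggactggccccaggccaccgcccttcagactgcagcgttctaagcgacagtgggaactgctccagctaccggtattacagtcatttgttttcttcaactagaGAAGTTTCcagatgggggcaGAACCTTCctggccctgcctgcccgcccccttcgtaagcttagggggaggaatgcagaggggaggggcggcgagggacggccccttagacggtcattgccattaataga

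The ER stress element was found in 22 of 33469 promoter windows, or 0.0657%, and both ER members were among them. In Hspa5 the match begins 43 bases before the start. In Hsp90b1 there were 2 matches, beginning 176 bases before the start and, on the opposite strand, 72 bases before it. The heat shock element of 3 units was found in 0.798% of windows and in 4 members, Hspa8, Hspd1, Hspe1 and Hsph1. Hspd1 and Hspe1 lie head to head on opposite strands and their windows share 211 bases, so the 2 overlapping matches printed for Hspe1 are also those of Hspd1. The element of 2 units is contained in every match to that of 3 units. It was found in 8.59% of windows and in 7 members, with Dnajb1, Hspa9 and Hspb1 added to the previous 4. Hspb1 had 2 such matches, beginning 129 and 109 bases before the start. Dnajb1 also had 2, of which 1 lies past the start and is not printed. The full palindromic glucocorticoid response element, AGAACA and TGTTCT with any 3 bases between them, was found in 0.0149% of windows and in 0 of the 10 members. A match of letters is not evidence of binding, and the absence of a match concerns only this window.

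The chaperones with a row were well expressed, and those of the ER were the most abundant. Levels of different genes can be compared because FPKM is scaled for transcript length. Hspa5, also known as BiP or GRP78, was at 184 FPKM after vehicle and 204 FPKM after CORT. Its partner Hsp90b1, also known as GRP94, was at 182 FPKM with vehicle against 193 FPKM with CORT for its major transcript. Both lay above at least 97.3% of all transcripts in mean level. The cytosolic exchange factor Hsph1 followed, with 116 FPKM after vehicle and 131 FPKM after CORT. Hspa4, of the same HSP110 family, was at 77.4 and 80.0 FPKM in the vehicle and CORT groups. The level of Hsph1 was thus 1.5 times that of Hspa4 with vehicle and 1.64 times with CORT.

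**Figure D1:**
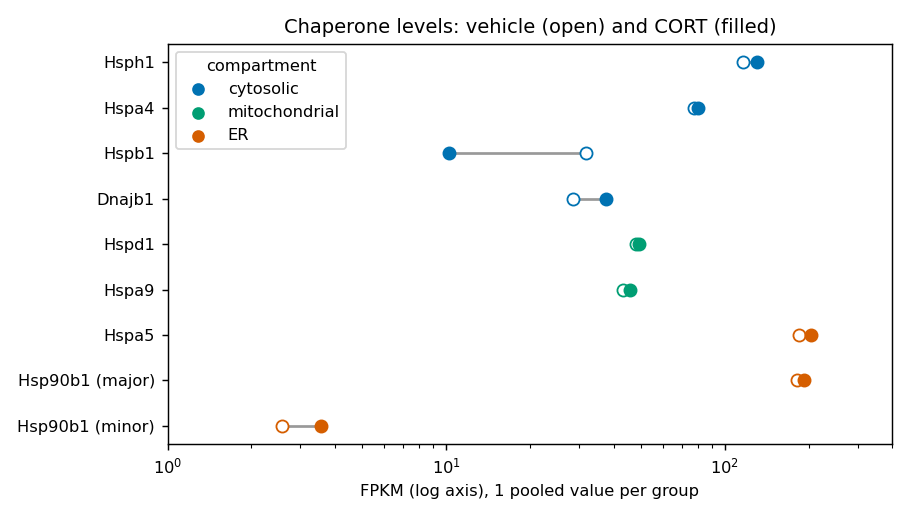
FPKM of the 9 chaperone transcripts on a log axis, with the pooled vehicle value as an open point and the pooled CORT value as a filled point, coloured by compartment. The open and filled points lie close together for most transcripts, whereas Hspb1 moved down from 31.8 to 10.3 FPKM and Dnajb1 moved up from 28.6 to 37.6 FPKM.

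The mitochondrial chaperones and the remaining cytosolic ones were lower. Hspd1, the chaperonin HSP60, was at 48.0 FPKM with vehicle against 49.4 FPKM with CORT. Hspa9, the mitochondrial HSP70 or mortalin, was at 43.1 and 45.6 FPKM in the vehicle and CORT groups. Below these 2 genes stood Hspb1 and Dnajb1, whose order was not the same in the groups. Hspb1 was at 31.8 FPKM after vehicle and 10.3 FPKM after CORT. Dnajb1, the stress-inducible J-protein HSP40, was at 28.6 FPKM after vehicle and 37.6 FPKM after CORT. The ratio of the Hspb1 level to the Dnajb1 level was 1.11 with vehicle and 0.273 with CORT. With the 2 Hsp90b1 transcripts summed, Hsp90b1 and Hspa5 were nearly equal with vehicle, at 185 and 184 FPKM. The other 4 genes, Hsph1, Hspa4, Hspd1 and Hspa9, stood in the same order in both groups. Without values for single rats, it cannot be said which neighbours in this order differ beyond the spread between animals.

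Between the groups, Hspb1 was the 1 chaperone that fell, Dnajb1 and the minor transcript of Hsp90b1 rose, and the other 6 transcripts differed by less than 1.2-fold. Of all 16266 transcripts, 12.3% rose and 13.3% fell by that measure. The share of members that rose, 2 of 9 or 22.2%, and the share that fell, 1 of 9 or 11.1%, rest on so few transcripts that a single one moves either share by as much as 11.1 percentage points. Low transcripts vary more, and among the 8088 transcripts with at least 10 FPKM in one group 6.75% rose and 4.96% fell. Of the 8 member transcripts at that level, Dnajb1 rose and Hspb1 fell. At a threshold of 1.1-fold, which 25% of all transcripts passed upwards and 22.3% downwards, Hspa5 and Hsph1 were added to the transcripts that rose. At 1.5-fold, which 4.21% passed upwards and 4.91% downwards, Hspb1 was the 1 member left. Of the 9 transcripts, 2 of them from Hsp90b1, 8 had a log2 ratio above 0. The share above 0 was 55% of all transcripts and 60.7% of those with at least 10 FPKM. In the other chaperone lists described below it was 72.3%. The median log2 ratio of the members was 0.09, beside 0.02 for all transcripts and 0.03 for those with at least 10 FPKM. The summed FPKM of these 2 sets had log2 ratios of 0.09 and 0.10, so a lean above 0 was not particular to the members.

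**Figure D2:**
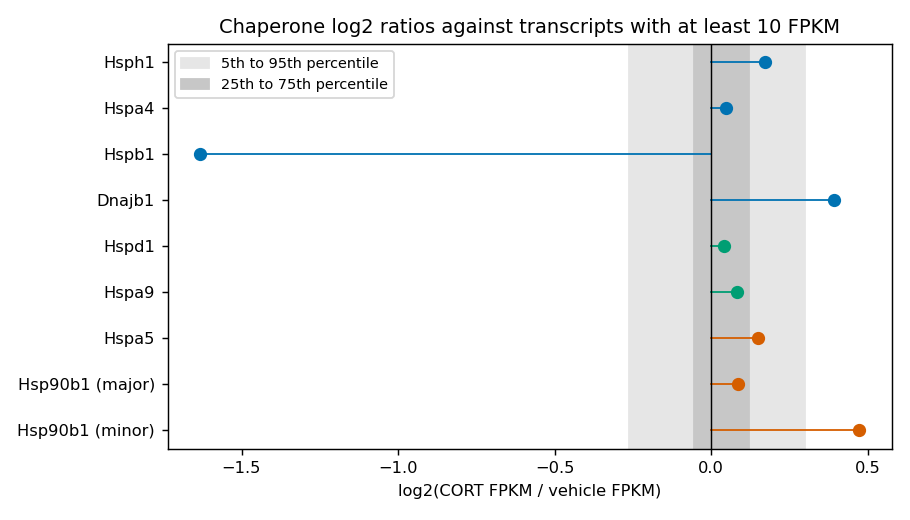
Log2 ratio of CORT over vehicle FPKM for the 9 chaperone transcripts, with grey bands for the middle of the distribution over the 8088 transcripts with at least 10 FPKM in one group (25th to 75th percentile, -0.05 to 0.12, and 5th to 95th percentile, -0.26 to 0.30). Hspb1 lies far to the left of the wider band, Dnajb1 and the minor Hsp90b1 transcript lie to its right, and the other 6 lie inside it. The minor Hsp90b1 transcript, at 0.47, is itself below 10 FPKM. Over all 16266 transcripts the 95th percentile is 0.52, so it lies below that percentile.

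The fall of Hspb1 was the largest difference among the members. Hspb1 is known for protecting actin filaments and for its induction in reactive glia and injured neurons. Its transcript ENSRNOT00000031555.5, between 23839398 and 23841049 on chromosome 12 of rn6 as given in the table, had a log2 ratio of -1.63, so that the CORT level was 0.323 of the vehicle level. With a pseudocount of 1 FPKM the log2 ratio was -1.54. Only 16 of the 8088 transcripts with at least 10 FPKM in one group, or 0.198%, fell as far, Hspb1 included. The others, named here after their values were seen, were of many kinds: the small RNAs SNORA32, SNORA17, snoU109, uc_338 and U1, and transcripts of Rpl34, Acly, Spp1, Lgals3, Lace1, Tagln, LOC685513, Pde6g, Arglu1 and Csnk2b. The largest fall was that of Rpl34, a ribosomal protein, from 24.1 to 0.0909 FPKM, and the highest level was that of an Arglu1 transcript, from 362 to 97.0 FPKM. Tagln, an actin-binding protein of smooth muscle, went from 105 to 22.5 FPKM. A transcript that fell this far could reach 10 FPKM through the vehicle group alone. Those of Rpl34, Acly, Spp1, SNORA17, Lgals3, uc_338, LOC685513, Pde6g, U1 and Csnk2b did so, with CORT levels below 10 FPKM. No transcript of another symbol overlapped the locus of Hspb1 or of any other member.

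Dnajb1 rose most among the members above 10 FPKM. Its transcript ENSRNOT00000079106.1, between 24747177 and 24750919 on chromosome 19, had a log2 ratio of 0.39, which is 1.31-fold. Of the transcripts with at least 10 FPKM in one group, 231 or 2.86% had a ratio as high. The cytosolic members without Hspb1 ran from a log2 ratio of 0.05 for Hspa4 to 0.39 for Dnajb1, with Hsph1 at 0.17. Hsph1 (chromosome 12, 6322667 to 6341902) was 1.13-fold higher with CORT, and 14.8% of transcripts with at least 10 FPKM were as high or higher. Hspa4 (chromosome 10, 38601623 to 38642397) was 1.03-fold higher, close to the middle of the distribution.

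The ER members differed little between the groups. Hspa5 (chromosome 3, 13838303 to 13842762) had a log2 ratio of 0.15, or 1.11-fold. The major Hsp90b1 transcript, ENSRNOT00000029435.5 (chromosome 7, 27226568 to 27240533), had one of 0.09. The minor transcript at the same locus, ENSRNOT00000079731.1, rose from 2.57 to 3.56 FPKM, a log2 ratio of 0.47. This minor transcript adds little to the gene, and the sum of both transcripts had a log2 ratio of 0.09. With a pseudocount of 1 FPKM the ratio of the minor transcript was 0.36. How fragments were divided between these 2 overlapping transcripts was estimated by Cuffdiff, so a difference in the minor one is uncertain.

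Set side by side, the cytosolic and the ER members did not separate. The median log2 ratio was 0.11 over 4 cytosolic transcripts and 0.15 over 3 ER transcripts, a difference of -0.04. The difference was -0.01 with the transcripts of each gene summed. The summed level of the cytosolic members was 254 FPKM with vehicle against 259 FPKM with CORT. Without Hspb1 the cytosolic sum was 222 and 248 FPKM. The ER sum was 369 and 401 FPKM. Apart from Hspb1 at -1.63, the cytosolic transcripts ranged from 0.05 to 0.39, which overlaps the range from 0.09 to 0.47 of the ER transcripts.

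The mitochondrial members differed little as well, and their median log2 ratio was 0.06. Hspd1 (chromosome 9, 61680529 to 61690956) had a log2 ratio of 0.04 and Hspa9 (chromosome 18, 27731071 to 27749235) one of 0.08. Both lay inside the middle of the distribution, since 47.5% and 34.8% of transcripts with at least 10 FPKM were as high or higher. Processed copies of Hspd1 are common in mammalian genomes, and fragments shared with such copies make its level uncertain.

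**Figure D3:**
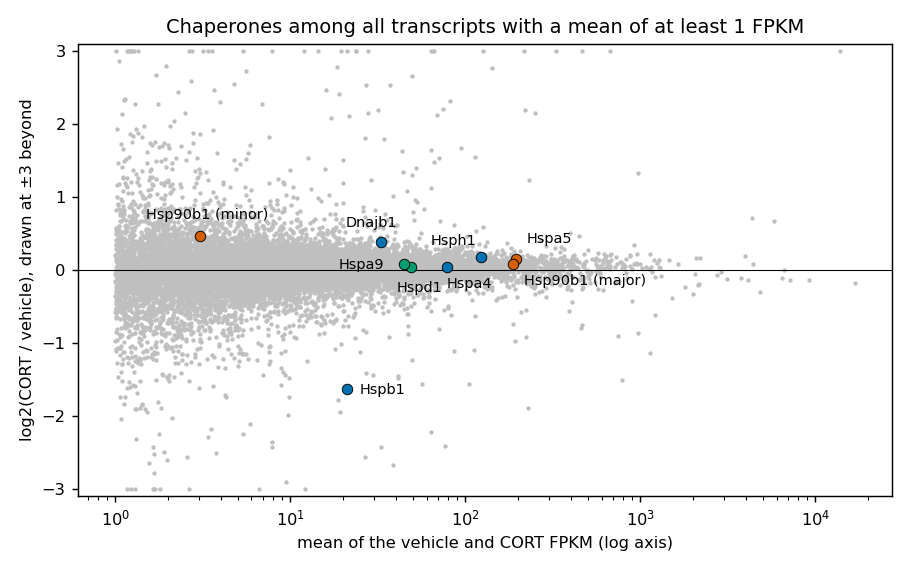
Log2 ratio of CORT over vehicle against the mean FPKM of both groups on a log axis, with each transcript of at least 1 FPKM in mean level as a grey point and the 9 chaperone transcripts coloured by compartment as in the plot of levels. Most members lie in the dense band around 0 at high FPKM, whereas Hspb1, at a mean of 21.0 FPKM, lies far below most transcripts of its level.

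The rest of the chaperone network was examined in 10 lists with 91 genes, of which 85 had 101 transcripts in the table. Atf3, Bag5, Hsp90aa1, Hspa1a, Hspb3 and Trib3 had no row. Of these 101 transcripts, 10 rose and 7 fell, that is 9.90% and 6.93%, both below the 12.3% and 13.3% of all transcripts. With at least 10 FPKM in one group, 4 rose and 2 fell, where 6.75% and 4.96% of all transcripts at that level did. Their median log2 ratio was 0.05, and 73 of the 101 were above 0. Among the other HSP70 and HSP110 genes, 1 of 7 transcripts rose and 1 fell. The most abundant, Hspa12a, was at 43.8 and 48.9 FPKM in the vehicle and CORT groups. The 2 that passed were low, with Hspa1l rising from 1.14 to 1.46 FPKM and Hspa12b, of endothelial cells, falling from 3.15 to 2.35 FPKM. The classical stress-inducible HSP70 gene Hspa1b, named after its value was seen, was under 1 FPKM in both groups, at 0.867 and 0.967 FPKM, and Hspa1a had no row.

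HSP90 and its cochaperones, which mature the glucocorticoid receptor, had 14 transcripts, of which 1 rose and 1 fell, with a median log2 ratio of 0.11. The one that rose was Fkbp5, which lowers the affinity of the receptor for its hormone and is itself a target of the receptor. Fkbp5 went from 18.6 to 33.8 FPKM, a log2 ratio of 0.86. The most abundant transcript with a row in this list, of Hsp90ab1, was at 383 FPKM with vehicle against 397 FPKM with CORT. Hsp90aa1, another cytosolic HSP90, had no row. The other members of that machinery stayed under 1.2-fold, except a minor transcript of Cdc37, the adaptor for kinases, which fell from 4.07 to 3.23 FPKM. For scale, 6 of the 7 transcripts of 5 well known glucocorticoid targets (Per1, Sgk1, Tsc22d3, Klf9 and Fkbp5) rose, and their median log2 ratio was 0.86.

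The J-proteins besides Dnajb1 had a few minor transcripts that rose. Of 17 transcripts of J-proteins that work with cytosolic HSP70, Dnajb1 left out, 4 rose and 0 fell, and 14 were above 0, with a median log2 ratio of 0.12. The 4 that rose made 23.5% of the list, against 12.3% of all transcripts. They belonged to Dnajb2, Dnajb4, Dnajb5 and Dnajb14, and each was the less abundant transcript of its gene. With the transcripts of a gene summed, 0 of these 11 genes rose and 0 fell. The largest rise was that of a minor Dnajb2 transcript, from 2.48 to 3.30 FPKM. The most abundant J-protein, Dnaja1, was at 190 and 215 FPKM in the vehicle and CORT groups, a log2 ratio of 0.18. The lowest ratio was that of Dnajc7, from 85.2 to 80.2 FPKM.

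Of 8 transcripts of BAG proteins and Hspbp1, which release clients from HSP70, 1 rose and 1 fell. Bag3, the stress-inducible member that directs clients to autophagy, rose from 7.06 to 10.5 FPKM, a log2 ratio of 0.57. A minor Bag6 transcript fell from 3.40 to 2.60 FPKM, and the most abundant gene, Hspbp1, was at 57.9 and 65.2 FPKM. The small heat-shock proteins besides Hspb1 did not show a fall of its size. Of their 5 transcripts 0 rose and 1 fell, with a median log2 ratio of -0.09. Hspb8, which works in a complex with Bag3, fell from 18.2 to 14.4 FPKM, a log2 ratio of -0.35. Cryab, the alpha-B crystallin of oligodendrocytes and astrocytes, was at 47.6 FPKM with vehicle against 55.7 FPKM with CORT. Hspb1 at -1.63 thus lay outside the range of the others, from -0.35 to 0.23.

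The other ER chaperones and folding enzymes differed little between the groups. None of its 15 transcripts reached 1.2-fold in either direction, and the median log2 ratio was 0.03, with a range from -0.14 for P4hb, a disulphide isomerase, to 0.19 for Creld2. The calcium-binding chaperone Calr, the most abundant, was at 358 and 364 FPKM. Among the sensors, transcription factors and targets of the unfolded protein response, 1 of 11 transcripts rose and 2 fell. Herpud1, of the ER degradation machinery, rose from 24.2 to 32.4 FPKM, a log2 ratio of 0.42. A minor transcript of Ppp1r15a, which directs the dephosphorylation of an initiation factor of translation, fell from 0.881 to 0.592 FPKM, while its main transcript was at 10.5 and 12.1 FPKM. A minor transcript of Ddit3, the transcription factor CHOP, fell from 16.3 to 12.8 FPKM. Its more abundant transcript was at 30.5 and 29.3 FPKM, and the summed gene had a log2 ratio of -0.15, under 1.2-fold. Atf4, the most abundant of the list, was at 141 and 142 FPKM.

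The cytosolic chaperonin TRiC, which folds actin and tubulin, had 1 of 9 transcripts rising, a minor one of Tcp1 from 3.81 to 4.81 FPKM. Its most abundant subunit, Cct5, was at 150 and 152 FPKM, and the lowest log2 ratio was -0.03 for Cct2. Of 10 other transcripts of mitochondrial folding and proteolysis 0 rose and 0 fell, with the import cochaperone Grpel1 the most abundant at 62.9 and 63.9 FPKM. The range ran from -0.20 for Hscb to 0.16 for Dnaja3. The heat shock factors gave 1 rise and 1 fall among 5 transcripts, and both were low transcripts of Hsf4, from 1.06 to 1.32 FPKM and from 1.15 to 0.755 FPKM. Hsf1, the main activator of the heat-shock genes and named after its value was seen, was at 16.6 FPKM with vehicle against 18.9 FPKM with CORT. Hsbp1, a binding protein of the factors, was at 295 and 296 FPKM.

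**Figure D4:**
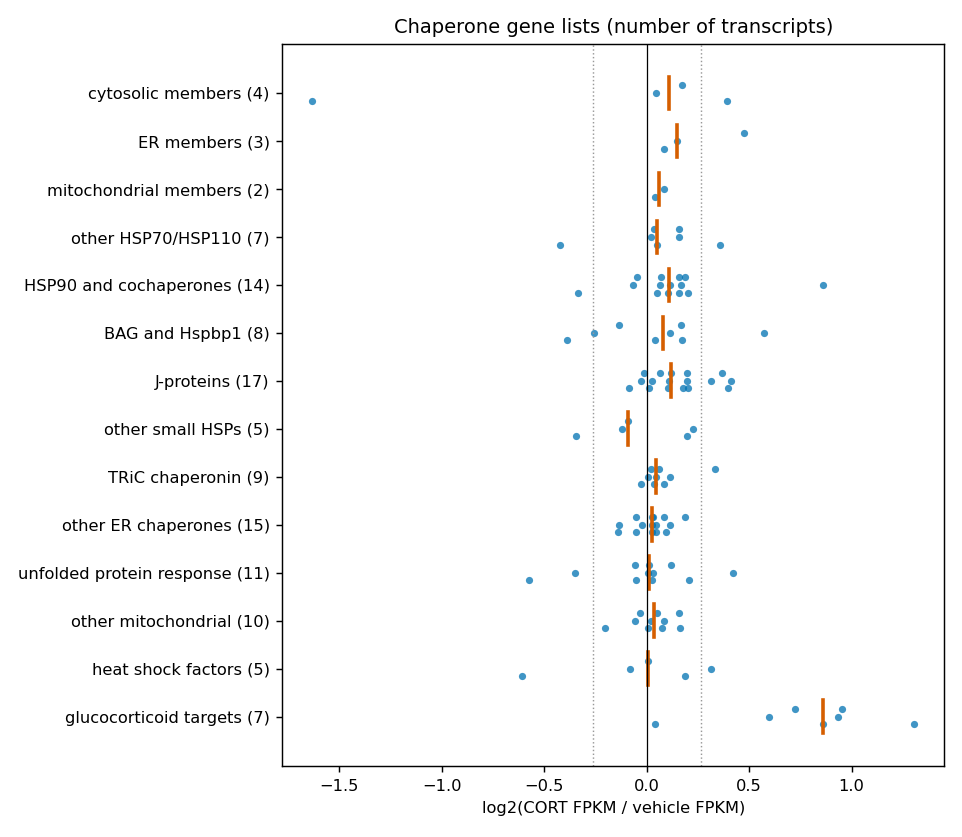
Log2 ratio of CORT over vehicle FPKM for each transcript (points) of the member compartments, the 10 other chaperone lists and the glucocorticoid targets, with the median of each list as a vertical bar and dotted lines at 1.2-fold in each direction. The medians of the chaperone lists lie between -0.09 and 0.15, that of the glucocorticoid targets lies at 0.86, and Hspb1 is the lowest point drawn.

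Hspb1 is not expressed evenly over brain cell types, so markers of 7 cell types are given beside it. In whole tissue, fewer cells of a type and less RNA per cell cannot be told apart. Neuronal markers were abundant, with Snap25 the highest at 1178 and 1155 FPKM in the vehicle and CORT groups. The 12 neuronal transcripts summed to 3071 and 3253 FPKM, a log2 ratio of 0.08, and 3 rose and 2 fell. The largest rise and the largest fall were both in minor transcripts of Gad1, from 2.99 to 4.13 FPKM and from 5.88 to 4.39 FPKM. The summed chaperone members, at 714 and 754 FPKM, also had a log2 ratio of 0.08, and the sum over all 16266 transcripts had one of 0.09.

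The summed markers of astrocytes, oligodendrocytes, microglia, endothelial cells and meninges were lower with CORT, and those of the choroid plexus were nearly level. Of 13 astrocyte transcripts 4 fell and 2 rose, and their sum went from 2628 to 2140 FPKM. Most of that loss was in Gfap, the intermediate filament of reactive astrocytes, which fell from 970 to 517 FPKM, a log2 ratio of -0.91. Without Gfap the astrocyte sum was 1658 and 1623 FPKM. The most abundant astrocyte gene, S100b, was at 1066 and 1095 FPKM. The 2 that rose were minor transcripts of Aqp4, from 0.0126 to 2.55 FPKM, and Aldh1l1, from 0.931 to 3.05 FPKM. More abundant transcripts of the same genes fell, for Aqp4 from 93.6 to 65.5 FPKM and from 60.1 to 47.6 FPKM, and for Aldh1l1 from 6.39 to 4.02 FPKM. With transcripts summed, 2 of the 6 astrocyte genes fell and 0 rose.

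For oligodendrocytes 2 of 11 transcripts fell and 1 rose, and the sum went from 7227 to 5930 FPKM. All 3 were transcripts of Mbp, the myelin basic protein, of which the most abundant fell from 2226 to 1772 FPKM, the one that fell most from 1705 to 1308 FPKM, and a minor one rose from 9.45 to 12.8 FPKM. For microglia 3 of 10 transcripts fell and 1 rose, and the sum went from 288 to 249 FPKM. Of the 10 microglial transcripts 9 had a log2 ratio below 0, and Tmem119, from 5.72 to 11.2 FPKM, was the 1 exception. Cx3cr1, a chemokine receptor, fell most, from 15.6 to 10.6 FPKM, Aif1 fell from 52.9 to 36.4 FPKM and C1qc from 35.9 to 29.2 FPKM. The most abundant microglial gene, C1qa, was at 71.8 and 67.4 FPKM.

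The endothelial and meningeal lists had no transcript that rose. Of 6 endothelial transcripts 4 fell and 0 rose, and the sum went from 82.5 to 69.4 FPKM, with Cldn5 the most abundant at 50.8 and 45.6 FPKM. The highest endothelial ratio was that of Flt1, at 5.50 and 5.55 FPKM. Of 6 meningeal transcripts 5 fell and 0 rose, and the sum went from 102 to 79.3 FPKM, with Igf2 the most abundant, falling from 59.0 to 46.3 FPKM. The meningeal genes Slc6a13 and Col1a1 fell most, from 7.21 to 3.03 FPKM and from 7.66 to 3.44 FPKM, while Dcn was at 18.8 and 20.0 FPKM. Of 5 choroid plexus transcripts 1 fell, that of Aqp1 from 22.2 to 17.1 FPKM, and 0 rose. Clic6 had the highest ratio there, at 31.9 and 35.0 FPKM, and Ttr made most of the sum of 6719 and 6709 FPKM.

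The share that fell was above the 13.3% of all transcripts in each of the 7 marker lists, neurons included, though in the neuronal, oligodendrocyte and choroid plexus lists by less than 1 transcript. The share that rose was above the 12.3% of all transcripts for neurons, at 25%, and for astrocytes, at 15.4%. It was below 12.3% in the other marker lists. No marker with a row was at 0 in either group, and Pecam1, Otx2, Col1a2 and Ogn had no row. The log2 ratio of Hspb1, -1.63, was lower than that of any of these marker transcripts, the lowest of which was that of an endothelial Slco1a4 transcript at 1.05 and 0.369 FPKM. The part of glial, meningeal or vascular tissue in the fall of Hspb1, or of neuronal tissue in the values of the other members, was not tested.

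**Figure D5:**
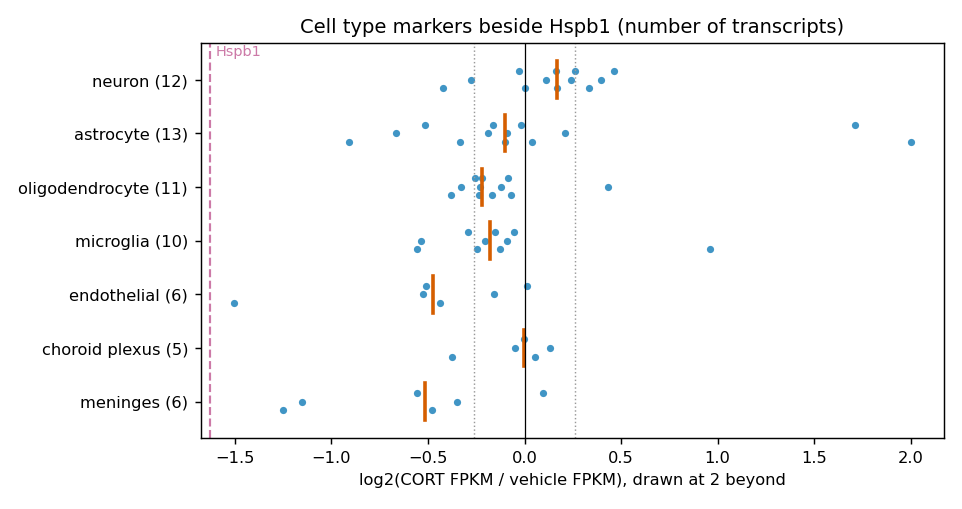
Log2 ratio of CORT over vehicle FPKM for each transcript (points) of 7 lists of cell type markers, with the median of each list as a vertical bar, dotted lines at 1.2-fold in each direction and the value of Hspb1 as a dashed line. The medians lie at 0.17 for neurons, at -0.47 for endothelial cells and at -0.52 for meninges (-0.33 and -0.13 with at least 10 FPKM in one group), and an Aqp4 transcript above 2 is drawn at 2.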

How the data were processed

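RNAseq libraries were prepared from whole hippocampi of 8 rats with a stranded total RNA kit. Per the labels, the submitters' processing notes name CASAVA 1.8.2, TopHat2 2.0.10, Cuffdiff 2.2.0 and the rn6 genome. The authors deposited 1 FPKM value per group for each of 16266 Ensembl transcripts, normalized geometrically between libraries, with corrections for multiple mapping, sequence bias and effective length and a minimum alignment count of 10, and all rows had the status OK. The table also holds the authors' own log2 fold change, test statistic, p-value and q-value, which were not used. The log2 ratio of CORT over vehicle was computed from the deposited FPKM without a pseudocount. With 1 value per group no test was run, and no precision or depth can be given.

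Groups were taken from the treatment labels. The members and gene lists were chosen with earlier results of these data known. The genes named were the 10 members, the glucocorticoid targets, and from each other list the largest rise, the largest fall and the most abundant transcript with at least 1 FPKM in one group. The transcripts that fell as far as Hspb1, Hspa1b, Hsf1, Dnajb4, Dnajb5, Dnajb14, Ppp1r15a, Aldh1l1, Aif1, C1qc and Col1a1 were named after their values were seen. Promoters came from RefSeq (GRCr8), and no GRCr8 coordinate was set against rn6. Alternatives were pseudocounts of 0.1 and 1 FPKM, minimums of 1 and 10 FPKM in one group, median centring, summed or most abundant transcripts per symbol, and thresholds of 1.1-fold and 1.5-fold. The functions were tested on simulated data. Python 3.11.15, numpy 2.4.6, pandas 2.3.3 and matplotlib 3.10.9 were used.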

Additional observations from a re-analysis of the deposited data

How the results depend on the processing

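Hspb1 was the 1 member transcript that fell under each alternative run. The number of members that rose was 2, and it was 1 with a minimum of 10 FPKM in one group, with the transcripts of a symbol summed and with the most abundant transcript of each symbol, since the minor Hsp90b1 transcript is then left out or merged. It was 4 at 1.1-fold and 0 at 1.5-fold. Of the other chaperone transcripts, 10 rose and 7 fell. With a minimum of 10 FPKM, which leaves out low transcripts, 4 rose and 2 fell. With summed transcripts 4 rose and 2 fell, and with the most abundant transcript 5 rose and 2 fell, since minor transcripts are then merged or left out. The 2 transcripts of Hsf4 had log2 ratios of 0.32 and -0.61, and their sum had one of -0.093. A pseudocount of 1 FPKM moved 8 of 110 transcripts by 0.1 or more. The median log2 ratio of the meningeal markers, -0.52, was -0.38 with that pseudocount and -0.13 with a minimum of 10 FPKM, that of the endothelial markers moved from -0.47 to -0.33 with that minimum, and that of the astrocyte markers from -0.10 to -0.31 with the most abundant transcript of each symbol. Centring on the median of all transcripts, 0.02, left 8 of the 9 members above 0. Leaving out each rat in turn was not run, because the table holds only group values. No paired analysis was possible because each group is a single pooled column. Library depth is unknown, and a detection limit was not computed.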
